A study of Mus musculus with 24 samples.

Results

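The 10 genes described here are core targets of NRF2, the transcription factor of the antioxidant response: *Nqo1*, *Hmox1*, *Gclc*, *Gclm*, *Srxn1*, *Txnrd1*, *Osgin1*, *Cbr3*, *Pgd* and *Ephx1*. Every non-control probe whose gene name in the scanner files is 1 of these symbols was taken. This gave 14 probes of the 56605 on the array. Of the 14, 11 were bright enough to be tested, among 32078 tested probes, and all 10 genes kept at least 1 of them, among 16988 named genes.

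Total RNA from the livers of C57BL/6J mice was hybridised to 24 single-colour arrays (Cy3 dye), 6 in each of 4 labelled groups: male control, female control, male pesticide and female pesticide. Per the labels, the mice ate a control diet or one enriched with pesticides for 52 weeks, 18 animals of each sex on each diet, and all groups carry a labelled age of 68 weeks. The series title calls the pesticides a cocktail at the acceptable daily intake level; its components are not given in the sources used here. The labels name no individual animal, and a p-value here measures only how these samples vary.

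The sex-linked transcripts went against 12 of the 24 sex labels, and every result below has to be read with that. *Eif2s3y*, a Y-linked gene, was well above background on all 6 labelled male control and all 6 labelled female control arrays, with means of 10.94 ± 0.05 and 10.99 ± 0.17 log2 signal (SD, n = 6 each), while 0 of 12 labelled pesticide arrays had it. *Xist*, transcribed from the inactive X chromosome of female cells, was well above background on all 6 labelled male pesticide arrays (8.24 ± 0.11) and all 6 labelled female pesticide arrays (8.21 ± 0.16), while 0 of 12 labelled control arrays had it. The 6 labelled female control and the 6 labelled male pesticide arrays therefore go against their sex label. In every difference between labelled pesticide and labelled control arrays, the labelled diet and the sex-linked transcripts cannot be told apart. The comparison of the 2 control-labelled groups sets arrays with Y-linked transcripts against arrays with Y-linked transcripts.

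Values are log2 of the median spot signal after quantile normalization, and a difference of 1 is a doubling. The arrays lay on 3 slides of 8, and every group had 2 arrays on each. The scanner marked 29935 to 39032 probes as well above background on an array, the most on labelled female pesticide replicate 3. The mean of 9 hepatocyte markers lay between 17.88 and 18.04 on all 24 arrays. Most of these markers are among the brightest probes, where quantile normalization leaves signals little room to differ. *Alb*, for example, averaged 18.88 in both control-labelled groups. The range therefore does not measure hepatocyte content. In RNA of whole liver, fewer cells of a type and less RNA per cell cannot be told apart.

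NRF2, encoded by *Nfe2l2*, is held in the cytoplasm and sent for degradation by KEAP1. When oxidants or electrophiles modify KEAP1, NRF2 accumulates, pairs with small MAF proteins and binds antioxidant response elements near its target genes. In liver these targets make glutathione, recycle oxidised thiols, supply NADPH and detoxify quinones, carbonyls, epoxides and haem; BACH1 occupies the same elements as a repressor, at *Hmox1* above all.

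The sequence just upstream of the transcription start of 8 of the 10 genes was in the RefSeq promoter table (GRCm38.p6), as 11 promoters; *Gclc* and *Hmox1* were not matched. The 250 bases before the start are shown for *Nqo1* and *Srxn1*, which moved in opposite directions below, and for *Osgin1* and *Gclm*, to show the letters that were searched. The intervals are chr8:107403206-107403455 (minus strand) for *Nqo1*, chr2:152105274-152105523 (plus) for *Srxn1*, chr8:119436897-119437146 (plus) for *Osgin1* and chr3:122245307-122245556 (plus) for *Gclm*. Each reads 5′ to 3′ on the strand of the gene, and capitals mark a match to 1 of the 2 motifs given after them. Where the match is on the opposite strand, the capitals spell the reverse complement of the motif.
Nqo1: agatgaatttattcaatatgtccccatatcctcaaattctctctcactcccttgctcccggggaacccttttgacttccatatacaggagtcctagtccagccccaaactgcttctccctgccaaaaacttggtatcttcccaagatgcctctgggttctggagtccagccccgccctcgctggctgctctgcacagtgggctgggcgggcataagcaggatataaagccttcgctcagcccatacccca
Srxn1: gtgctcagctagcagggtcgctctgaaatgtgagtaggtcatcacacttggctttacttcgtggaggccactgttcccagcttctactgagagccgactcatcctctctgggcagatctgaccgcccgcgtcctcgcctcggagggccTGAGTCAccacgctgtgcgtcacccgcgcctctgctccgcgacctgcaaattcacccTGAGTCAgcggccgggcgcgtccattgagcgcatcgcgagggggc
Osgin1: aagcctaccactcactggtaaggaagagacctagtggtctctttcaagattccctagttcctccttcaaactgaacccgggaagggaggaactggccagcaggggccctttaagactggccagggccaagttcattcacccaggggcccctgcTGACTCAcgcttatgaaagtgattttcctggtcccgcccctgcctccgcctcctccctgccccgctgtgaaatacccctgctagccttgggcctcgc
Gclm: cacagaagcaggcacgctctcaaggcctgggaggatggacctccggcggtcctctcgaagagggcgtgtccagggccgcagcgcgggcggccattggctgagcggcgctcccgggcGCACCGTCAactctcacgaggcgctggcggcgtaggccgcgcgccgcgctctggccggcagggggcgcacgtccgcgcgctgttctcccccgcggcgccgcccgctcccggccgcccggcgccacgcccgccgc

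The core of the antioxidant response element, TGACNNNGC, was searched on both strands and lay in 2 of the 11 promoters of these genes and in 10.2% of all 32851 promoters of that length. The matches are in *Gclm*, 134 to 126 bases before the start, and in a promoter of *Txnrd1*, 92 to 84 bases before it. Both are on the strand opposite the gene. TGACTCA, the letters that AP-1 factors bind and that many antioxidant response elements contain, was also found in 2 of 11, against 4.46% of all promoters. These are *Srxn1*, with matches at 102 to 96 and at 45 to 39 bases before the start, and *Osgin1*, at 97 to 91. Those of *Srxn1* are on the opposite strand, and that of *Osgin1* is on the strand of the gene. The 2 searches can overlap where TGACTCA is followed by GC; no promoter of these genes held both motifs, and *Nqo1* held neither. A match is a description of letters, and its absence says only that they are not in this window.

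Between the labelled diets, *Nqo1* and *Hmox1* were higher and *Srxn1* lower in the labelled pesticide groups, and the other 7 genes did not pass the test. Over both labelled sexes, *Nqo1*, a quinone reductase, was 1.48-fold higher, *Hmox1*, the haem-degrading enzyme, 1.50-fold higher and *Srxn1*, which repairs overoxidised peroxiredoxins, 1.29-fold lower. In labelled males 2 of 10 genes rose and 0 fell at a limma adjusted p under 0.05, where 24.8% of all genes tested were called, 13.9% higher and 10.9% lower. In labelled females 0 rose and 1 fell, where 20.3% were called, 10.2% higher and 10.1% lower. In the mean of the 2 labelled sexes 2 rose and 1 fell, where 38.8% were called, 19.9% higher and 18.9% lower. The share called was thus no larger among the 10 than among all genes in any of the 3. The median log2 difference of the 10 genes was -0.03 in labelled males, -0.21 in labelled females and -0.10 in their mean, beside -0.02, -0.01 and -0.02 for all genes. At an unadjusted p under 0.05 there were 2 of 10 in labelled males (37.2% of all genes), 6 of 10 in labelled females (34.1%) and 4 of 10 in the mean (47.6%).

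**Figure D1:**
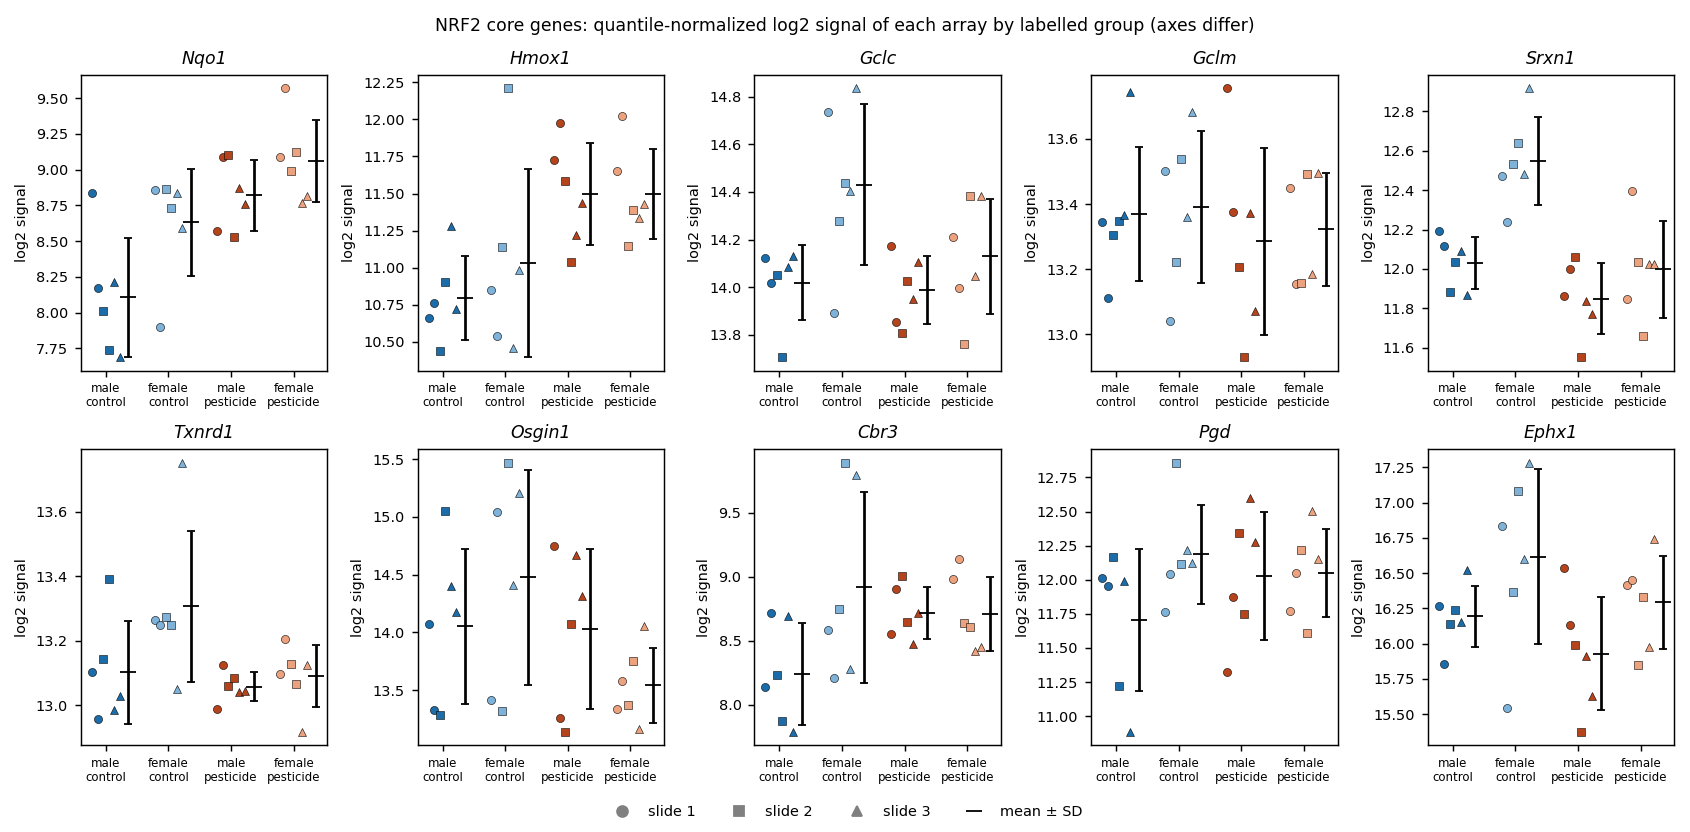
Log2 signal (y axis, its range differs between panels) of each of the 10 genes on each of the 24 arrays, by labelled group (x axis); point shape gives the slide, and bars are the mean ± SD of 6 arrays. *Srxn1* is the only panel in which the 6 labelled male control and the 6 labelled female control arrays do not overlap, and labelled female control shows the widest spread for *Hmox1*, *Cbr3*, *Osgin1* and *Ephx1*.

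*Nqo1* reduces quinones to hydroquinones and is among the most used readouts of NRF2 activity. Its probe (A_51_P424338, mm9, chromosome 8, 109912440 to 109912499, minus strand) gave 7.69 to 8.83 with a median of 8.09 in labelled male control, and 8.53 to 9.10 with a median of 8.81 in labelled male pesticide. In labelled female control it ranged from 7.90 to 8.86 (median 8.79) and in labelled female pesticide from 8.76 to 9.57 (median 9.04). In labelled males only the highest control array, replicate 1, reached into the pesticide range, and in labelled females the groups overlapped between 8.76 and 8.86. The difference was 0.71 (SE 0.18, adjusted p = 0.0072), or 1.64-fold, in labelled males and 0.43 (SE 0.18, adjusted p = 0.11) in labelled females. The mean over both was 0.57 (SE 0.13, adjusted p = 0.0013). The test of the difference between the labelled sexes gave 0.28 (SE 0.26, adjusted p = 1). The order of group means was male control 8.11 ± 0.42, female control 8.63 ± 0.37, male pesticide 8.82 ± 0.24 and female pesticide 9.06 ± 0.29 (SD, n = 6 each), and each neighbouring pair overlapped.

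*Hmox1* encodes haem oxygenase, which opens haem to biliverdin, iron and carbon monoxide, and in liver it is expressed both by hepatocytes and by the macrophages that clear red cells. Its tested probe (A_55_P2757433, chromosome 8, 77624406 to 77624466, plus strand) lay between 10.44 and 11.28 (median 10.74) in labelled male control and between 11.04 and 11.98 (median 11.51) in labelled male pesticide. Labelled female control spanned 10.46 to 12.21 (median 10.92), and labelled female pesticide 11.15 to 12.02 (median 11.41). The value of 12.21 is labelled female control replicate 4 and is the highest of all 24 arrays; the next of its group is at 11.14. The difference was 0.70 (SE 0.22, adjusted p = 0.026), or 1.63-fold, in labelled males, 0.47 (SE 0.22, adjusted p = 0.15) in labelled females and 0.58 (SE 0.16, adjusted p = 0.0056) in the mean. Without labelled female control replicate 4 the labelled female difference was 0.70 and passed (adjusted p = 0.006). The labelled male call was lost without labelled male control replicate 1 (0.68, adjusted p = 0.051) or 3 (0.63, 0.06), or without labelled male pesticide replicate 1 (0.66, 0.053) or 2 (0.61, 0.064). The 2 labelled pesticide groups had the same mean, 11.50 ± 0.34 and 11.50 ± 0.30, and the difference between them was 0.00 (95% interval -0.46 to 0.46).

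The marker genes of Kupffer cells and other macrophages moved with *Hmox1*. Of 11 such markers, 10 were higher in labelled pesticide in each labelled sex. Of all genes, 13.9% were called higher in labelled males and 10.2% in labelled females. The 11 markers had a median difference of 1.36 in labelled males and 1.16 in labelled females. *Marco* alone did not pass (0.28 in the mean, adjusted p = 0.72). Their mean level per array was 9.97 to 11.65 in labelled male control, 9.79 to 12.01 in labelled female control, 11.31 to 12.13 in labelled male pesticide and 10.88 to 12.50 in labelled female pesticide. All 11 were well above background on all 24 arrays, and labelled female control replicate 4, the array with the highest *Hmox1*, had the 12.01. After the 4 group means were removed, *Hmox1* and the macrophage mean correlated with a Pearson r of 0.85 over the 24 arrays, and 0.73 without labelled female control replicate 4. With T and NK cell markers r was 0.61 (-0.02 without that array), and with stellate and fibroblast markers 0.39 (-0.04 without it). The other lists gave 0.47 (B cell), 0.29 (bile duct), 0.22 (neutrophil), 0.08 (erythroid), -0.05 (endothelial) and -0.44 (hepatocyte). These arrays share their normalization and slides, and the values are given without a p. All 8 endothelial markers were also higher in the mean of both labelled sexes, with a median of 0.60. In that mean 19.9% of all genes were called higher and 18.9% lower. In the same comparison 7 of 8 stellate and fibroblast markers, 4 of 4 tested neutrophil markers and 3 of 4 B cell markers were higher. So were 3 of 4 tested erythroid markers, with 1 lower, 3 of 9 hepatocyte markers and 1 of 5 T and NK cell markers, and 1 of 5 bile duct markers was higher and 1 lower. The part of any of these cell types in the *Hmox1* result was not tested.

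**Figure D2:**
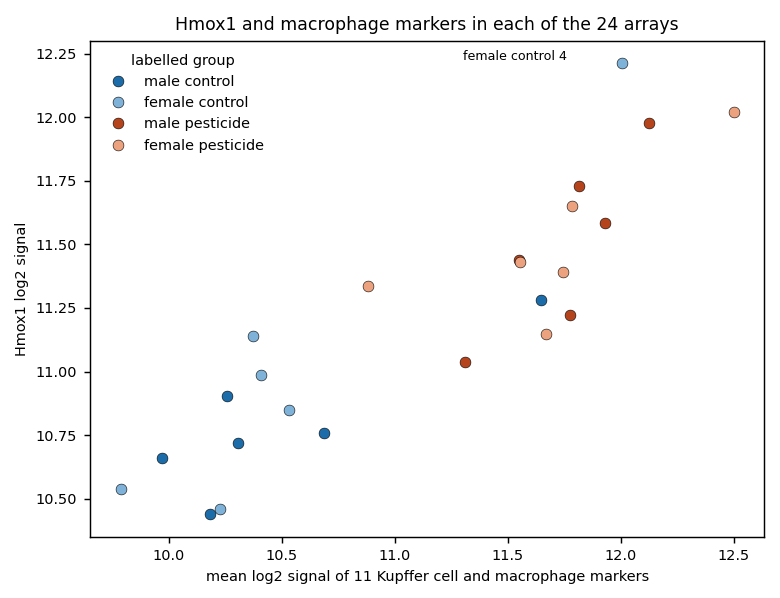
*Hmox1* log2 signal (y axis) against the mean log2 signal of 11 Kupffer cell and macrophage markers (x axis) on each of the 24 arrays, coloured by labelled group. Most labelled control arrays lie at the lower left; labelled female control replicate 4 (12.01, 12.21) and labelled male control replicate 5 (11.65, 11.28) lie among the labelled pesticide arrays.

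*Cbr3* and *Ephx1* handle carbonyls and epoxides. *Cbr3*, a carbonyl reductase (A_51_P481159, chromosome 16, 93691120 to 93691179, plus strand), ranged from 7.79 to 8.72 (median 8.19) in labelled male control, 8.21 to 9.89 (8.66) in labelled female control, 8.47 to 9.01 (8.68) in labelled male pesticide and 8.42 to 9.14 (8.62) in labelled female pesticide. Labelled female control replicates 4 and 6, at 9.89 and 9.80, stood above every other array. The labelled diet difference was 0.48 (SE 0.25, adjusted p = 0.17) in labelled males and -0.21 (SE 0.25, adjusted p = 0.60) in labelled females. *Cbr3* also followed the macrophage mean after group means were removed (r = 0.71, and 0.58 without labelled female control replicate 4). *Ephx1*, the microsomal epoxide hydrolase (A_55_P2002578, chromosome 1, 182919689 to 182919748, minus strand), had means of 16.20 ± 0.22, 16.62 ± 0.62, 15.93 ± 0.40 and 16.29 ± 0.33 in labelled male control, female control, male pesticide and female pesticide. All 4 groups overlapped, and the mean labelled diet difference was -0.29 (SE 0.16, adjusted p = 0.15). The lowest labelled female control array, replicate 2, was at 15.55, below all labelled female pesticide arrays; without it the mean difference was -0.40 and passed (adjusted p = 0.02).

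*Gclc* and *Gclm* encode the catalytic and modifier subunits of glutamate-cysteine ligase, the rate-limiting enzyme of glutathione synthesis. *Gclc* (A_51_P365019, chromosome 9, 77641296 to 77641355, plus strand) ranged from 13.71 to 14.13 (median 14.07) in labelled male control and from 13.81 to 14.17 (13.99) in labelled male pesticide, with a difference of -0.03 (95% interval -0.30 to 0.24). In labelled females it ranged from 13.89 to 14.84 (14.42) in control and from 13.76 to 14.38 (14.13) in pesticide, with a difference of -0.30 (SE 0.13, adjusted p = 0.11). Without labelled female control replicate 2, the lowest of its group, the labelled female difference was -0.41 and passed (adjusted p = 0.019), as did the mean of both labelled sexes (-0.22, adjusted p = 0.038). *Gclm* (A_66_P138964, chromosome 3, 121967737 to 121967796, plus strand) was the steadiest of the 10 between groups. Its 4 group means lay between 13.29 and 13.39, with SDs of 0.17 to 0.29, and its mean labelled diet difference was -0.08 (95% interval -0.26 to 0.11, adjusted p = 0.54).

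*Srxn1* and *Txnrd1* belong to the thioredoxin arm of the response. *Srxn1*, sulfiredoxin (A_55_P2033120, chromosome 2, 151937009 to 151937068, plus strand), ranged from 11.87 to 12.19 (median 12.06) in labelled male control, 12.24 to 12.92 (12.51) in labelled female control, 11.55 to 12.06 (11.85) in labelled male pesticide and 11.66 to 12.39 (12.03) in labelled female pesticide. The labelled female control group stood above the rest: its lowest array exceeded every array of the other groups except labelled female pesticide replicate 2. The labelled female difference was -0.55 (SE 0.11, adjusted p = 0.0014), or 1.46-fold lower in pesticide, and the labelled male difference was -0.18 (SE 0.11, adjusted p = 0.26). The mean was -0.37 (SE 0.08, adjusted p = 0.00091). The difference between the labelled sexes, 0.37 (SE 0.16), had an unadjusted p of 0.031 and an adjusted p of 1. Labelled female pesticide, at 12.00 ± 0.24, and labelled male control, at 12.03 ± 0.13, had nearly the same mean.

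*Txnrd1*, the cytosolic thioredoxin reductase, had 2 tested probes in different parts of the gene, which were well above background on all 24 arrays. The brighter (A_51_P320614, chromosome 10, 82360230 to 82360289, plus strand) averaged 13.10 ± 0.16 and 13.31 ± 0.23 in the control-labelled groups, male then female, and 13.06 ± 0.05 and 13.09 ± 0.10 in the pesticide-labelled ones. The second (A_55_P2740574, chromosome 10, 82338379 to 82338438) had means of 10.90 ± 0.07, 11.01 ± 0.29, 10.78 ± 0.25 and 10.75 ± 0.08 in the same order. Both lay below 0 in the labelled female difference, at -0.22 (SE 0.09, adjusted p = 0.093) and -0.26 (SE 0.11, adjusted p = 0.11). The first passed when arrays were scaled to the 75th percentile of the median signal (-0.28, adjusted p = 0.035) or of the processed signal (-0.31, 0.024), and without labelled female control replicate 5 (-0.27, 0.04). Under the same 2 scalings its mean difference passed too, at -0.21 (0.015) and -0.24 (0.007).

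*Pgd*, which makes NADPH in the pentose phosphate pathway, and *Osgin1*, an oxidative stress induced growth inhibitor, varied widely inside each group. *Pgd* (A_52_P84096, chromosome 4, 148524293 to 148524352, minus strand) ranged from 10.88 to 12.16 in labelled male control, 11.76 to 12.86 in labelled female control, 11.32 to 12.60 in labelled male pesticide and 11.61 to 12.50 in labelled female pesticide. Its labelled diet difference was 0.32 (SE 0.23, adjusted p = 0.33) in labelled males and -0.14 (SE 0.23, adjusted p = 0.73) in labelled females. *Osgin1* (A_51_P189361, chromosome 8, 121970077 to 121970136, plus strand) ranged from 13.32 to 15.47 (median 14.73) in labelled female control and from 13.17 to 14.05 (13.47) in labelled female pesticide. In labelled males it ranged from 13.29 to 15.05 (14.12) in control and from 13.14 to 14.75 (14.20) in pesticide. The labelled female difference of -0.93 (SE 0.37) was the largest of the 10 genes in size and did not pass (adjusted p = 0.078). It passed without labelled female control replicate 1 (-1.15, adjusted p = 0.033) or 3 (-1.17, 0.028), at 13.42 and 13.32 the lowest of that group.

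Of the other probes, *Hmox1* A_52_P602559 (chromosome 8, 77620085 to 77620144) and *Pgd* A_55_P2716656 (chromosome 4, 148534529 to 148534588) were well above background on 0 of 24 arrays, with group means of 5.10 to 5.21 and 5.34 to 5.41. *Pgd* A_55_P2716651 (chromosome 4, 148529609 to 148529668) was well above background on 2 of 24, both labelled female pesticide, with group means of 5.36 to 5.50. Each of the 3 is annotated to another transcript than the tested probe of its gene, and none was tested.

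**Figure D3:**
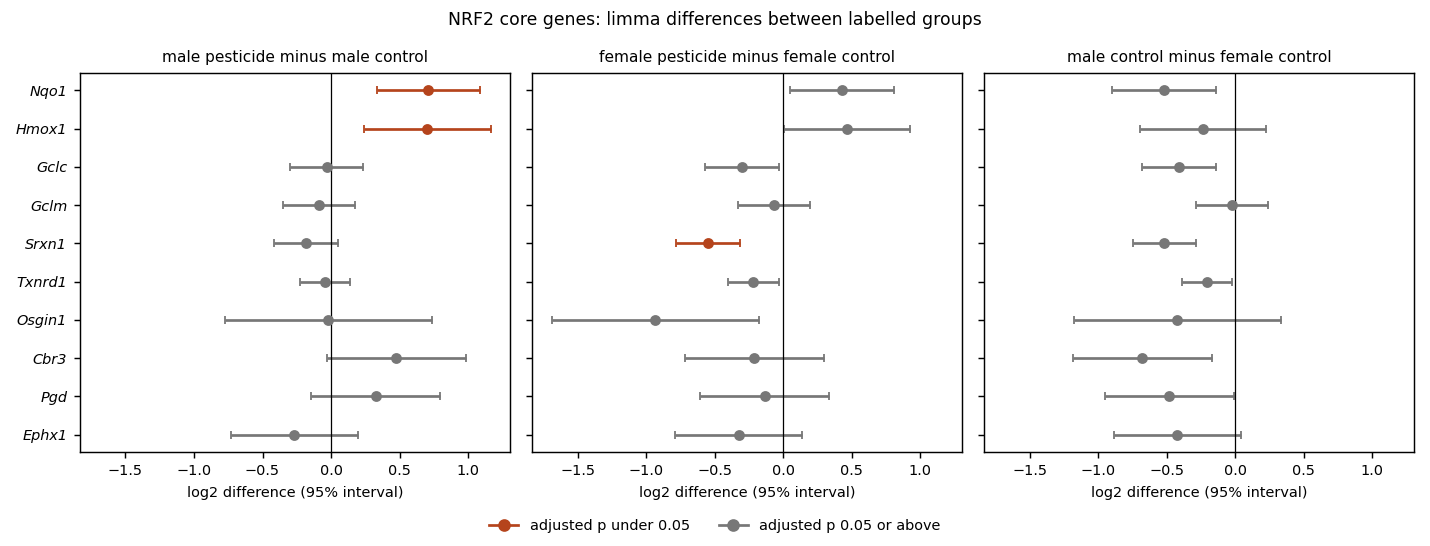
Log2 difference of each of the 10 genes (points) with its 95% interval (bars) in the 2 labelled diet comparisons and in the comparison of the control-labelled groups; red marks an adjusted p under 0.05. *Nqo1* (0.71) and *Hmox1* (0.70) passed in labelled males and *Srxn1* (-0.55) in labelled females, and every point of the right panel lies below 0.

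The control-labelled groups both carried Y-linked transcripts, and no gene passed the adjusted test between them. All 10 genes had a lower mean in labelled male control than in labelled female control, and 52.8% of all genes did. With limma 0 of the 10 passed, nor did any other gene (0% called). At an unadjusted p under 0.05 there were 6 of the 10 genes, where 6.58% of all genes reached it, and 3.34% did so below 0. The median difference was -0.42, beside -0.01 for all genes. Most of these genes are known to share 1 regulator and several vary together between arrays, so the 10 are not independent observations.

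In that comparison *Srxn1* had the smallest p: the difference was -0.52 (SE 0.11, adjusted p = 0.28), and its 6 labelled male control arrays, at 11.87 to 12.19, lay below all 6 labelled female control arrays. It was the only one of the 10 genes whose groups did not overlap, and 0.6% of all genes did so. *Gclc* differed by -0.41 (SE 0.13, adjusted p = 0.45), *Nqo1* by -0.52 (SE 0.18, 0.60), *Cbr3* by -0.68 (SE 0.25, 0.65), *Txnrd1* by -0.20 (SE 0.09, 0.83) and *Pgd* by -0.48 (SE 0.23, 0.88), all with an unadjusted p under 0.05. The differences of *Ephx1* (-0.42), *Osgin1* (-0.42), *Hmox1* (-0.24) and *Gclm* (-0.02) did not reach it. Leaving out 1 array at a time kept 8 to 10 of the 10 genes below 0. Over all alternative runs, which include each slide alone, 6 to 10 lay below 0. The macrophage markers had a median difference of -0.14 in this comparison and the hepatocyte markers 0. Most of the latter are among the brightest probes and have little room to differ after quantile normalization.

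The mean of the 10 genes was 12.06 to 12.33 on the labelled male control arrays and 12.43, 12.17, 12.46, 12.94, 12.41 and 12.92 on labelled female control replicates 1 to 6. All of the latter but replicate 2 lay above every labelled male control array, with replicates 4 and 6 the highest. Replicate 4 had the highest *Hmox1*, *Cbr3* and *Osgin1* and the highest macrophage mean of the control arrays. Replicate 6 had the highest *Ephx1*, *Gclc*, *Srxn1* and *Txnrd1* of all 24 arrays, and its macrophage mean of 10.41 was not raised. The labelled pesticide groups spanned 12.10 to 12.42 and 12.23 to 12.56.

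The 2 labelled pesticide groups, which both carried *Xist*, differed little. In labelled male minus labelled female pesticide 0 of 10 genes passed with limma and 0 of all genes did (0% called), 0 of 10 had an unadjusted p under 0.05 where 3.95% of all genes did, and the median was -0.03. The largest difference was that of *Osgin1*, 0.49 (SE 0.37, adjusted p = 1). The interaction of labelled diet and labelled sex called 0 of 10 genes and 0 of all genes (0% called); *Srxn1* alone had an unadjusted p under 0.05, where 4.19% of all genes did. Of the 10 interaction estimates 9 lay above 0, as did 52.9% of all genes, with a median of 0.27. They use the same arrays as the comparison of the control-labelled groups, so the 2 are not separate evidence.

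The slides gave different sizes for several genes. *Nqo1* was higher in labelled pesticide within every slide, by 0.33, 0.94 and 0.86 in labelled males and by 0.95, 0.26 and 0.08 in labelled females on slides 1, 2 and 3. *Srxn1* was lower within every slide in labelled females, by -0.23, -0.74 and -0.67. *Hmox1* differed by 1.14, 0.64 and 0.33 in labelled males, and by 1.14, -0.41 and 0.66 in labelled females, where slide 2 holds labelled female control replicate 4. Between the control-labelled groups *Nqo1* differed by 0.12, -0.93 and -0.76, *Cbr3* by 0.03, -1.27 and -0.80, and *Srxn1* by -0.20, -0.63 and -0.72. Slide 1 thus carried little of the control difference in *Nqo1* and *Cbr3*, and *Srxn1* kept its direction on all 3. *Pgd* (0.08) and *Hmox1* (0.02) also lay above 0 on slide 1 in that comparison. With 2 arrays per group on a slide, 1 of the 10 genes passed on slide 1 alone in labelled males and in labelled females, *Hmox1* in both, and 0 on slides 2 and 3. Few genes of any kind passed there: 3.74%, 2.31% and 1.88% of all genes in labelled males and 4.21%, 1.26% and 1.44% in labelled females on slides 1, 2 and 3, so these counts are near the background of each slide.

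**Figure D4:**
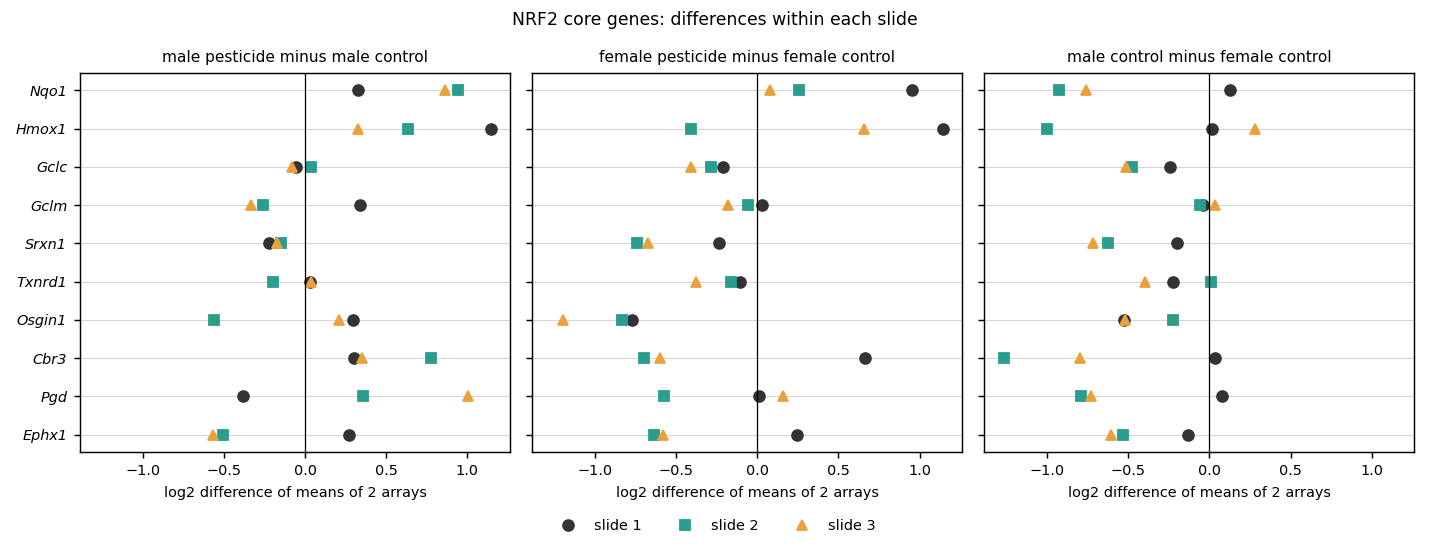
Log2 difference of each of the 10 genes within slides 1, 2 and 3 (point shapes), each the difference of means of 2 arrays, for the 2 labelled diet comparisons and for the control-labelled groups. In labelled females *Osgin1*, *Srxn1*, *Gclc* and *Txnrd1* lie below 0 on all 3 slides, while *Cbr3*, *Hmox1*, *Ephx1*, *Gclm* and *Pgd* change sign between slides.

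Once group means were removed, the 10 genes varied together only in part. Over 45 pairs the Pearson r ranged from -0.51 to 0.87 with a median of 0.22, and 36 were above 0. *Ephx1* followed *Gclm* (0.87) and *Gclc* (0.66), and *Gclc* followed *Gclm* (0.61). *Cbr3* followed *Hmox1* (0.69, or 0.53 without labelled female control replicate 4) and *Srxn1* (0.59), and *Nqo1* followed *Srxn1* (0.55). *Pgd* went with few of the others and lay against *Gclm* (-0.51), and *Nqo1* lay against *Osgin1* (-0.39). All values come from the same 24 arrays and their normalization, and carry no p.

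**Figure D5:**
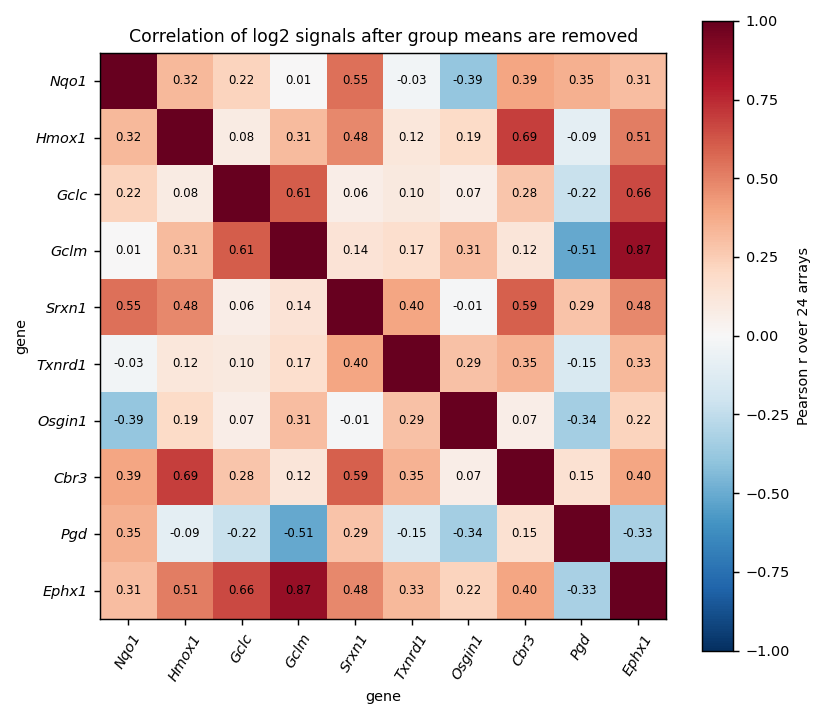
Pearson r between the log2 signals of each pair of the 10 genes over 24 arrays after the 4 group means were removed (colour and printed value). A block of *Gclc*, *Gclm* and *Ephx1* (0.61 to 0.87) stands beside a chain of *Hmox1*, *Cbr3*, *Srxn1* and *Nqo1*, and *Pgd* is mostly below 0.

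The genes whose pattern was most like each of the 10 were found by the same measure over the 24 arrays. The search covered named genes outside the 10 and left out names of clones and predicted genes. *Pgd* followed *Acsl5* (r = 0.95), *Elovl6* (0.94) and *Acly* (0.93), which encode enzymes of fatty acid activation, elongation and synthesis. *Cbr3* followed *Cdca5* (0.92), *Sgo1* (0.90) and *Tinag* (0.89), and *Hmox1* followed *Iqgap1* (0.91), *Basp1* (0.90) and *Pilrb1* (0.90). *Ephx1* followed *Slc48a1* (0.85), *Dus1l* (0.84) and *Creg1* (0.84), and *Gclm* followed *Lrp4* (0.82), *Ugt2b36* (0.82) and *Ugt2b38* (0.81). The nearest were *Smad3* (0.84) for *Gclc*, *Tor1aip2* (0.86) for *Txnrd1*, *Pde4d* (0.82) for *Nqo1*, *Nup93* (0.81) for *Srxn1* and *Rab5c* (0.76) for *Osgin1*.

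The regulators of the pathway showed little movement at the level of RNA. *Nfe2l2*, which encodes NRF2, differed by 0.03 (SE 0.08, adjusted p = 0.84) in the mean labelled diet comparison, with levels of 11.99 ± 0.18, 12.28 ± 0.35, 12.15 ± 0.05 and 12.17 ± 0.11 in labelled male control, female control, male pesticide and female pesticide. *Keap1* differed by -0.03 (SE 0.06, adjusted p = 0.78) and *Bach1* by -0.26 (SE 0.12, adjusted p = 0.084). Of 12 regulators, 1 was higher and 1 lower in that comparison, where 38.8% of all genes were called. The higher was *Btrc*, a ubiquitin ligase subunit that can mark NRF2 for degradation (0.19). The lower was *Gsk3b*, the kinase that primes that step (-0.32). Between the control-labelled groups *Nfe2l2* differed by -0.29 (SE 0.12), with an unadjusted p of 0.018 and an adjusted p of 0.72.

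Other genes of the same metabolic arms moved in both directions in the mean labelled diet comparison. The share of all genes called there was 38.8%, and the median of all genes was -0.02. In glutathione synthesis and recycling 10 of 12 genes were tested, 1 rose and 3 fell (median -0.18): *Gstp1*, a pi-class glutathione transferase, fell by 2.49, *Gsr*, glutathione reductase, by 0.34 and *Mgst1*, a microsomal transferase, by 0.34. In the thioredoxin and peroxiredoxin system 4 of 13 rose and 3 fell (median 0.06). *Txnip*, the thioredoxin inhibitor, rose by 0.80 and *Sesn2*, sestrin 2, by 0.29, and *Prdx5*, a peroxiredoxin, fell by 0.25. Of 9 genes of NADPH supply 0 rose and 3 fell (median -0.04), *Taldo1*, transaldolase, by 0.39.

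The counts that follow are also of the mean labelled diet comparison, where 19.9% of all genes were called higher and 18.9% lower. Among 12 other genes for quinones, carbonyls and epoxides 2 rose and 5 fell (median -0.08). *Ephx2*, the soluble epoxide hydrolase, fell by 0.48, *Akr7a5*, an aldehyde reductase, by 0.46 and *Aox1*, aldehyde oxidase, by 0.65. Of 8 genes of haem and iron handling 2 rose and 1 fell (median 0.04). *Fth1*, ferritin heavy chain, rose by 0.18, *Hpx*, hemopexin, by 0.22, and *Blvrb*, a biliverdin reductase, fell by 0.24. Of 4 genes that remove superoxide and peroxide 3 rose and 1 fell (median 0.19), with *Sod3*, the extracellular dismutase, higher by 0.78. Of 7 tested targets of the xenobiotic receptors AhR and CAR, from a list of 9, 4 rose and 0 fell (median 0.50). *Cyp2b10*, a CAR target, was higher by 6.91 in labelled pesticide, *Cyp2c29* by 1.10 and *Gadd45b* by 1.12. These differences are larger than that of any of the 10 NRF2 core genes. *Cyp2b10* averaged 8.0 ± 1.2 and 9.3 ± 2.1 in labelled male and female control, and 15.6 ± 0.3 and 15.5 ± 0.6 in pesticide (SD). As in every labelled diet comparison here, labelled diet and sex-linked transcripts cannot be told apart in these differences. The list pools both receptors, and its AhR targets did not move together. From control to pesticide, *Cyp1a2* averaged 11.48 and 11.12 in labelled males and 11.18 and 10.96 in labelled females. *Tiparp*, which was among the 4 that rose, averaged 9.35 and 9.86, then 9.40 and 9.88. *Cyp1b1* averaged 6.42 and 6.53, then 6.48 and 6.34.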

How the data were processed

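Per the file headers, each deposited scanner file gives the fluorescence intensity and local background of every spot; the submitters' processing notes name Agilent Feature Extraction 10.10.1.1 and limma. The deposited value table holds log2 values; the authors filtered, log2 transformed and quantile normalized the median signal, per the labels' protocols. The filter is not given in the sources used here. The table served as an alternative, and 24 of its 24 columns correlated best with their own scanner file.

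Here, log2 median signals without background subtraction were used, outlier spots (0 to 9 per array) were set to missing, spots of a probe were averaged, and 56605 non-control probes were quantile normalized. No spot was saturated (0 per array). A probe was tested when well above background on at least 4 of 6 arrays of a group. One mean per group was fitted to 24 arrays in limma 3.58.1 (R 4.3.3) without a block. Calls need a two-sided Benjamini-Hochberg adjusted p under 0.05 over 32078 probes. A gene is represented by its brightest tested probe. Named were all 10 genes with every probe, *Nfe2l2*, *Keap1* and *Bach1*. Also named were up to 3 genes per pathway list with the smallest p in the mean labelled diet comparison. So were the 3 genes outside the 10 that were most like each of the 10. Macrophage marker *Marco* and the AhR targets *Cyp1a2*, *Cyp1b1* and *Tiparp* were named after their values were seen. The 10 genes and the lists were chosen with earlier results of these data known. The number of arrays limits the precision. Probe positions are on mm9, per the file headers; promoters are on GRCm38.p6.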

Additional observations from a re-analysis of the deposited data

Results flagged for a closer look

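In 56 sets of 6 arrays (14 probes in 4 labelled groups), 6 had 1 array farther from the others than Dixon's 95% limit; chance gives about 1 in 20 sets. *Nqo1* was lowest in labelled female control replicate 2, at 7.90, where the other 5 arrays lay at 8.59 to 8.86. *Gclc* was lowest in labelled male control replicate 4, at 13.71, and *Txnrd1* (A_51_P320614) highest in labelled female control replicate 6, at 13.75. The other 3 sets are of probes that were not tested. *Hmox1* A_52_P602559 was highest in labelled male control replicate 5, at 5.37. *Pgd* A_55_P2716651 was highest in labelled female control replicate 3, at 5.63, and in labelled female pesticide replicate 5, at 5.83.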

How the results depend on the processing

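The number of the 10 genes called in the labelled female comparison, 1 as reported, was 2 with array weights and with scaling to the 75th percentile of either the median or the processed signal, where 22%, 19.8% and 21.5% of all genes were called against 20.3% as reported. It was 0 on slide 2 or slide 3 alone, where 1.26% and 1.44% of all genes were called. In labelled males it was 2 as reported, and 1, 0 and 0 on slides 1, 2 and 3 alone, beside 24.8% of all genes as reported and 3.74%, 2.31% and 1.88% on the slides. In the mean it was 3 as reported, and 1, 0 and 0 on those slides, each with 2 arrays per group, beside 38.8% of all genes as reported and 13%, 5.75% and 7.09% on the slides. The fall in the count on single slides thus goes with a fall over all genes. Leaving out 1 array gave 1 to 2 in labelled females, 1 to 2 in labelled males and 3 to 5 in the mean, where the 5 came without labelled female control replicate 2. Over all genes the share called was then 16.6% to 23.0%, 21.0% to 26.1% and 36.2% to 40.2%. The other comparisons gave 0 under every alternative run. No called difference of the 10 genes changed sign under the alternatives run. Normexp background correction, the filters on dim probes, kept outlier spots, a slide block, only the arrays compared, trend and robust settings, the deposited value table and 1 probe per gene left these counts within 1.5 times.

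Titles number the replicates 1 to 6 in each group. Same-numbered arrays correlated in their deviations from the group means by -0.12 to 0.34 (median 0.08) over 36 pairs. Of these, 15 were above 0.1, and 13 were best with their own number among the 6 arrays of the other group. Same-numbered arrays also lay on the same slide, so these values cannot tell pairing by number from a shared slide. The main fit did not pair the samples, and a replicate block was run as an alternative. A replicate block called 3 genes in labelled females, adding *Gclc* (-0.30, adjusted p = 0.046) and *Osgin1* (-0.93, 0.034), 2 in labelled males and 3 in the mean, where 23.1%, 28.0% and 42.3% of all genes were called.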
